A study of Mus musculus with 8 samples.

Results

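Il1rl1, the gene of the interleukin-33 receptor, was described together with 9 other genes of the interleukin-1 family in cultured mouse kidney tubular epithelial cells. The genes were matched by symbol, and all 10 were among the 14145 genes of the deposited table. Il1rl1 was chosen by its lower FPKM in the knockout libraries of this same comparison, where it was 1 of 11 genes called (a call lost under 9 of 19 alternative settings), so its difference between the groups is given as a description with no test. The other 9 genes were taken as relatives of Il1rl1, with earlier results of these libraries known. There were 4 libraries of control cells, whose genotype field reads WT, and 4 of knockout cells, taken from mice that the design text calls Aldh2Ctrl and Aldh2TEC-KO. Groups were read from the titles, because the genotype field of the knockout libraries runs from ALDH2 to ALDH5. All cells were primary cultures grown in serum-containing medium and received no treatment. The allele and driver of the deletion, and the strain and age of the mice, are not named in the labels or notes. Whether each library was a separate animal is not stated either. The p-values therefore set group differences only against the spread within the groups of these 8 libraries. In the controls that spread may be technical. The knockouts hold libraries of both sexes, as given below, so their spread may be technical only in part.

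Receptors of the interleukin-1 family are single-span membrane proteins with extracellular immunoglobulin domains and an intracellular TIR domain. A ligand-binding chain (Il1r1 for interleukin-1, Il1rl1 for interleukin-33, Il18r1 for interleukin-18) pairs with an accessory chain (Il1rap for interleukin-1 and interleukin-33, Il18rap for interleukin-18) and signals through Myd88 to NF-kB and MAP kinases. Interleukin-33 is an alarmin stored in the nucleus of epithelial and other barrier cells and released on damage. A soluble form of Il1rl1, made by early termination of the transcript, acts as a decoy for it.

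FPKM, the deposited unit, counts reads or fragments per kilobase of gene at equal depth. The depth recovered from it was 17050000 to 17760000 in the controls and 17890000 to 18760000 in the knockouts. Aldh2, the targeted gene, read 23.69 to 31.08 FPKM in the controls, against 0.88 to 1.64 in the knockouts. Knockout 1 and 2 were female by Xist and Y-linked transcripts and the other 6 libraries male. Summed Y-linked transcripts were 5.79 and 12.16 FPKM in knockout 3 and 4, against 19.96 to 34.10 FPKM in the controls. Knockout 3 and 4 also stood apart in their mitochondrial transcripts, with summed levels of 4235.7 and 5033 FPKM against 11690.4 to 21740.6 FPKM in the other 6 libraries. Within the knockouts, sex and this measure divide the libraries alike, and their parts cannot be told apart there. The controls, all male, were at 11690.4 to 21740.6 FPKM. All 8 general tubular epithelial markers were measured, with summed levels of 1374.6 to 3187.35 FPKM in the controls, against 785.53 to 6607.82 in the knockouts. Of 7 proximal tubule markers 4 were measured, at 8.55 to 33.94 and 3.95 to 41.12 FPKM.

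Il1rl1 (ENSMUSG00000026069, protein coding) lies at chr1:40429570-40465415 of GRCm38, on the plus strand, among other receptor genes of the family. GENCODE M21 gives it 5 coding transcripts, the longest of 5302 bases and 11 exons ending at the end of the gene. A shorter one, of 2661 bases and 8 exons, ends at position 40448148, and another, of 1216 bases, at 40446723. The deposited value is 1 number per gene, so membrane and soluble forms are not separated in any value below. RefSeq (GRCm38.p6) places start sites of Il1rl1 at 40429570 and 40439629. The 250 bases before each are shown, since the table has 1 value for both, with the window before Il18rap, the receptor gene 2 places downstream. The last 2 bases of the proximal window lie in an exon of a GENCODE transcript. They are printed 5′ to 3′ on the plus strand, with capitals for letters of the searched motifs.
Il1rl1 distal start (chr1:40429320-40429569): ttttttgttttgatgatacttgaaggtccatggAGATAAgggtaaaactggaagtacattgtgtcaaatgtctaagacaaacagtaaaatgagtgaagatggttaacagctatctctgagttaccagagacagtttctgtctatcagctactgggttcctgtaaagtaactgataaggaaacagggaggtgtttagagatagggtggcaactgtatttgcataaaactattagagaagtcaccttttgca
Il1rl1 proximal start (chr1:40439379-40439628): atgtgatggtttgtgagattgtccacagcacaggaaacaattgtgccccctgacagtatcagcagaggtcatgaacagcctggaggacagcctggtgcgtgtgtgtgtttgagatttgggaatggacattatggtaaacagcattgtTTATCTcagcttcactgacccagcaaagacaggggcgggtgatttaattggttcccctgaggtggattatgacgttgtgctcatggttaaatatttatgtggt
Il18rap (chr1:40515112-40515361): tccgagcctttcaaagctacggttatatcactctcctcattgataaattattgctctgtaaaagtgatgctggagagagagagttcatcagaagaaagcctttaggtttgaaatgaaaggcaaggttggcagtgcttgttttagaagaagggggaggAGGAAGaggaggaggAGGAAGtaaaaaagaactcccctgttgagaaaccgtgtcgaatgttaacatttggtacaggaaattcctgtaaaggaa

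Both strands were searched for the letters AGATAA of the GATA family, for AGGAAG of the ETS family, for TGANTCA of the AP-1 dimers and for GGGNNTTCC of the NF-kB proteins. Each Il1rl1 window held 1 AGATAA, and no other motif matched there. AGATAA was in 10.0% of the 32851 distinct windows of the RefSeq table, and in 2 of the 16 windows found for 9 of the members, both of Il1rl1. The Il18rap window held 2 AGGAAG, a motif of 29.5% of all windows. Among the 16 member windows AGGAAG was in 4, of Il33, Il1rap, Il1a and Il18r1. AP-1 and NF-kB letters were in 2 and 1 of the 16 windows, against 6.7% and 5.0% of all windows. No 2 matches overlap in the printed windows, and a match describes letters only.

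Il1rl1 was the most abundant member in the controls and lay in the middle of the family in the knockouts. It read 21.91, 22.83, 21.13 and 12.49 FPKM in control 1 to 4, against 1.87, 3.32, 3.44 and 5.31 in knockout 1 to 4. The groups did not overlap, and the lowest control was 2.35 times the highest knockout. Control 4 stood below the other controls. Group means were 19.6 ± 4.78 and 3.48 ± 1.41 FPKM (SD over 4 libraries), a knockout level of 17.8% of control. On the log2(FPKM + 1) scale the difference was -2.22 (SE 0.28), and 4 of the 14145 genes had a larger drop. The values rest on 1493 to 2683 reads per control and 237 to 665 per knockout library. In bulk RNA, fewer cells with the transcript and less transcript per cell cannot be told apart. In the authors' deposited table the log2 fold change of Il1rl1 is -2.38.

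**Figure D1:**
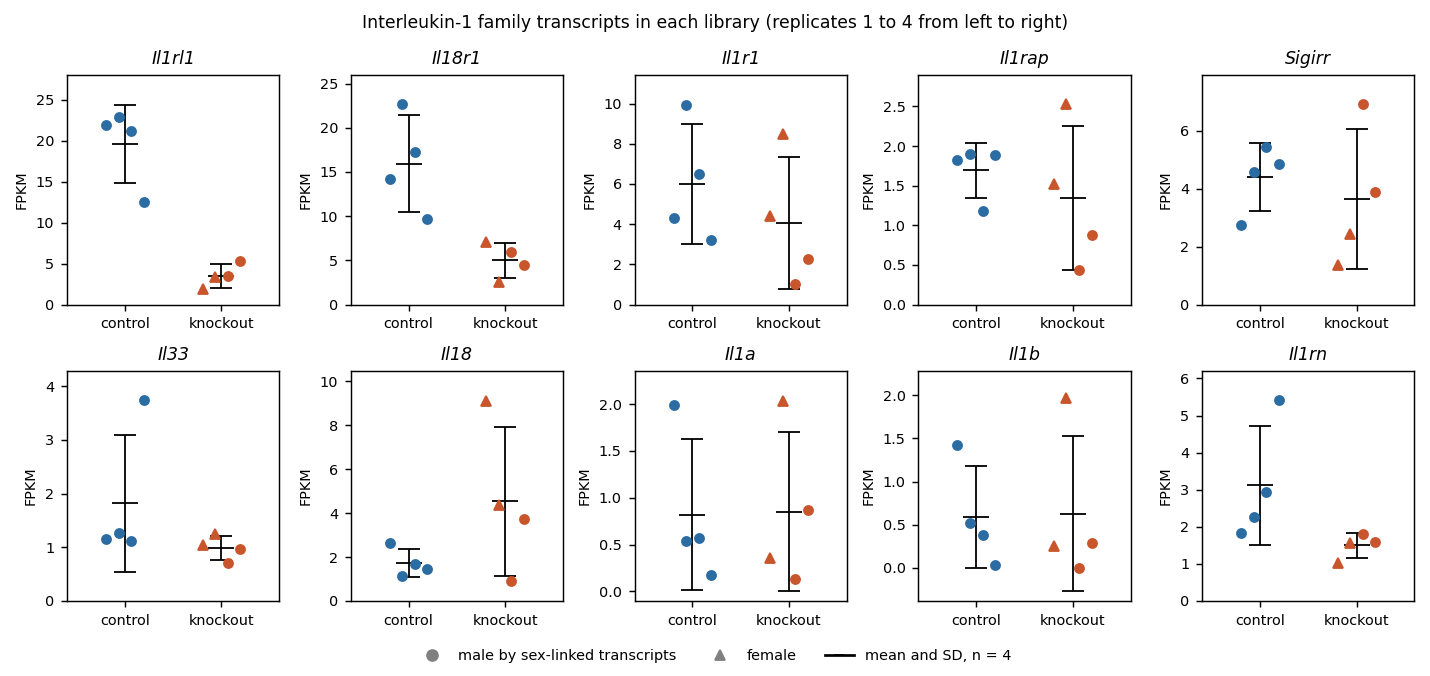
FPKM of the 10 family members (vertical axes from 0 or just below) in each of the 4 control and 4 knockout libraries, with mean and SD as black bars, circles for male and triangles for female libraries. Il1rl1 spans 12.49 to 22.83 FPKM in the controls, against 1.87 to 5.31 in the knockouts, and Il18r1 and Il1rn are the only other members whose groups do not overlap.

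Cells other than tubular epithelium can carry Il1rl1, among them mast cells, endothelium and fibroblasts, so their markers are given beside it. Of 7 endothelial markers 3 were measured (Eng, Esam, Emcn). Their summed level was 5.1 to 7.16 FPKM in the controls, against 1.55 to 3.29 in the knockouts. Eng was the largest part of it, with group means of 4.54 and 1.68 FPKM. Esam was at 0.88 against 0.19 FPKM, and Emcn at 0.64 against 0.28 FPKM with overlapping groups. Esam rests on 5 to 22 reads per knockout library and Emcn on 6 to 67. Pecam1, Cdh5, Kdr and Tek were not analysed here. The 4 measured of 7 fibroblast and pericyte markers summed to 447.87, 52.78, 66.79 and 34.53 FPKM in control 1 to 4, against 19.62 to 37.12 FPKM in the knockouts. Control 1, with much the highest sum, had an Il1rl1 level close to those of control 2 and 3. Of 8 mast cell markers 2 were measured. Kit, the stem cell factor receptor, read 0.35 to 0.63 FPKM in the controls, against 0.07 to 0.16 in the knockouts, while Ms4a2, a chain of the IgE receptor, read 0.23 to 0.78 and 0.34 to 17.13 FPKM. The mast cell protease genes Cpa3, Mcpt4, Tpsb2 and Tpsab1 were not analysed here. The 14 macrophage markers, all measured, summed to 92.9 to 1040.91 FPKM in the controls, against 226.18 to 1718.03 in the knockouts. The part of these cells in the Il1rl1 level was not tested.

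None of the other 9 members passed limma's test over all genes at an adjusted p below 0.05 (0 of 9, against 0.0778% of all genes), and limma-voom on the recovered reads also called 0. An unadjusted p below 0.05 was found for 2 of the 9, or 22.2%, close to the 19.2% of all genes. The median log2 difference of the 9 was -0.34, with 7 lower and 2 higher, beside a median of -0.06 over all genes, of which 7850 were lower and 6295 higher. All 4 knockouts lay below all 4 controls for 2 of the 9, against 6.86% of all genes, and above them for 0, against 4.76% of all genes.

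Il33, the ligand of Il1rl1, was a low transcript in both groups. It read 1.16, 1.26, 1.11 and 3.74 FPKM in the controls, against 1.04, 1.24, 0.70 and 0.97 in the knockouts. The groups overlapped, and control 4, the control with the least Il1rl1, had the most Il33. The log2 difference was -0.42 (SE 0.27, limma adjusted p = 0.396), from 57 to 187 reads per control and 38 to 64 per knockout library. Il1rl1 was 18.8, 18.1, 19.0 and 3.34 times as high as Il33 per length in control 1 to 4, and 1.80 to 5.46 times in the knockouts. Il1rap, the accessory chain that Il1rl1 shares with Il1r1, read 1.82, 1.90, 1.17 and 1.89 FPKM in the controls. In the knockouts it read 1.53, 2.53, 0.44 and 0.87 FPKM, so its highest and lowest values were both in knockouts (log2 difference -0.27, SE 0.27, limma adjusted p = 0.578).

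Il18r1, the ligand-binding chain for interleukin-18, begins 136 bases after the end of Il1rl1 on the same strand and had the nearest difference to it within the family. It read 14.24, 22.65, 17.23 and 9.70 FPKM in the controls, against 7.11, 2.53, 5.93 and 4.46 in the knockouts. The groups did not overlap, and control 4 was again the lowest control. Group means were 16.0 ± 5.43 and 5.01 ± 1.98 FPKM (SD over 4 libraries), with a log2 difference of -1.50 (SE 0.31) that did not pass (limma adjusted p = 0.0996). The authors' deposited table gives Il18r1 a log2 fold change of -1.55 and an adjusted p of 0.0619. Within libraries Il1rl1 was 1.54, 1.01, 1.23 and 1.29 times Il18r1 in control 1 to 4, and 0.262, 1.31, 0.58 and 1.19 times in knockout 1 to 4. Knockout 1 had the least Il1rl1 and the most Il18r1 of the knockouts. Leaving out single libraries moved the adjusted p of limma from 0.0380 without knockout 2, where 8.05% of all genes passed, to 0.368 without control 2.

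Il18rap, the accessory chain for interleukin-18, read 7.71, 9.64, 8.52 and 2.61 FPKM in the controls, against 5.73, 1.45, 4.06 and 2.50 in the knockouts. Control 4 lay among the knockouts (log2 difference -0.86, SE 0.40, limma adjusted p = 0.277). Il18, the cytokine itself, had a higher knockout mean, at 2.64, 1.14, 1.69 and 1.45 FPKM against 9.11, 4.39, 0.93 and 3.74 FPKM. Knockout 3 was the lowest of all 8 libraries, and the difference of 0.82 (SE 0.43) did not pass (limma adjusted p = 0.319). The exons of Il18 (chr9:50554827-50581840) lie in a span that overlaps Bco2 and Tex12 in the annotation, and whether counting used strand is not stated. Il18bp, the secreted antagonist of interleukin-18, read 0.50 to 1.55 FPKM in the controls, against 0.25 to 1.96 in the knockouts. Its span overlaps Numa1, so its value is uncertain.

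The differences of genes around Il1rl1 on chromosome 1 were laid out by position. Il1rl1, chosen by its lower level in these knockout libraries, had the largest drop of the locus. The 8 measured genes with spans within 500 kb of Il1rl1 all had lower knockout means on the log2 scale. From the upstream side the log2 differences were -0.20 for Map4k4, a kinase, -0.60 for Il1r1, and -0.31 for Il1rl2, the interleukin-36 receptor. Downstream they were -1.50 for Il18r1, -0.86 for Il18rap, -0.73 and -0.69 for the sodium-proton exchangers Slc9a4 and Slc9a2, and -0.25 for Mfsd9, a major facilitator family gene. Their median was -0.65, beside -0.06 over all genes. None of the 8 was called by limma (0 of 8, 3 with an unadjusted p below 0.05, or 37.5% against 19.2% of all genes). Il18r1 alone had groups that did not overlap (1 of 8 with all knockouts below all controls, against 6.86% of all genes). Il1r2, the decoy receptor of interleukin-1 that lies between Map4k4 and Il1r1, was not analysed here.

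**Figure D2:**
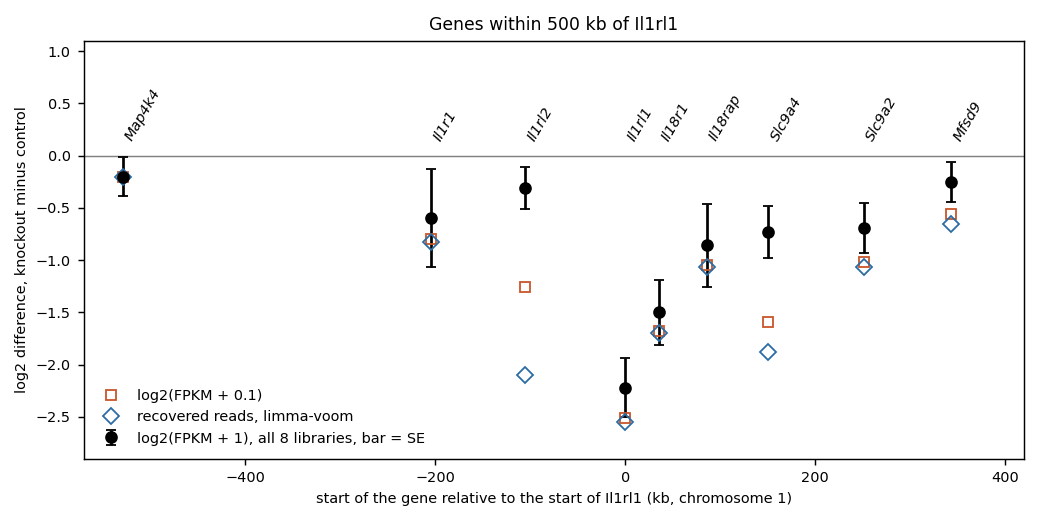
Log2 difference between knockout and control (vertical axis) for Il1rl1 and 8 neighbours by the start of each gene relative to that of Il1rl1 in kb (horizontal axis), with SE bars for log2(FPKM + 1) and open symbols for a smaller pseudocount and for recovered reads. Il1rl1 is lowest at -2.22, followed by Il18r1 at -1.50 on the main scale, and the low transcripts Il1rl2 and Slc9a4 shift most between scales.

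The order beyond Il18r1 depended on the scale for low transcripts. Il1rl2 read 0.53, 0.65, 0.57 and 0.31 FPKM in the controls, against 0.02, 0.78, 0.07 and 0.11 in the knockouts. Knockout 2 was the highest library of all 8, while the other knockouts lay below every control. Its difference was -1.26 with a pseudocount of 0.1 and -2.10 by limma-voom on recovered reads. Slc9a4, at 0.61 to 1.99 and 0.14 to 0.83 FPKM, gave -1.59 and -1.88 on the same scales. Il1rl1 remained the lowest of the 9 genes under these and 4 other settings, at -2.51 and -2.55 in these cases. It was chosen by its lower level in these same knockout libraries, so its place in this order is no test. With the trend on gene length removed 7 of the 8 neighbours were below 0, with Map4k4 at 0.14. With knockout 1 and 2 alone 6 of 8 were, with Map4k4 at 0.03 and Il1r1 at 0.14.

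Il1r1, the signalling receptor of interleukin-1, varied as much within groups as between them. It read 4.29, 9.95, 6.51 and 3.21 FPKM in the controls, against 4.43, 8.50, 1.05 and 2.28 in the knockouts. Knockout 1 and 2 lay within the controls and knockout 3 and 4 below them (log2 difference -0.60, SE 0.47, limma adjusted p = 0.477). Sigirr, a family member that restrains signalling through the other receptors, read 2.74, 4.59, 5.44 and 4.87 FPKM against 1.36, 2.42, 6.94 and 3.87 FPKM. Here knockout 1 and 2 were the lowest of all libraries and knockout 3 the highest (log2 difference -0.33, SE 0.36, limma adjusted p = 0.60).

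Il1a and Il1b, the agonists of Il1r1, were low and had nearly equal group means. Il1a read 1.99, 0.53, 0.57 and 0.18 FPKM in the controls, against 0.36, 2.04, 0.14 and 0.87 in the knockouts (log2 difference 0.01, SE 0.36, limma adjusted p = 0.989). Il1b read 1.43, 0.52, 0.38 and 0.03 FPKM in the controls, against 0.26, 1.96, 0.00 and 0.29 in the knockouts (log2 difference -0.03, SE 0.36, limma adjusted p = 0.964). Control 1 and knockout 2 were the highest libraries of each group for both. The Il1b values are 47, 17, 13 and 1 reads and 9, 67, 0 and 10 reads. A count of 0 in knockout 3 allows up to 0.0839 FPKM (3 reads, counting error only). Both spans overlap a gene model in the annotation, Gm14023 for Il1a and Il1bos for Il1b.

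Il1rn, the secreted antagonist at Il1r1, had lower values in every knockout. It read 1.83, 2.26, 2.95 and 5.42 FPKM in the controls, against 1.01, 1.58, 1.81 and 1.59 in the knockouts. The groups were separated by only the step from 1.81 to 1.83 FPKM, and control 4 was well above the rest. Group means were 3.11 ± 1.6 and 1.5 ± 0.342 FPKM (SD over 4 libraries), with a log2 difference of -0.66 (SE 0.26, limma adjusted p = 0.232). Il1rn lies on chromosome 2 (chr2:24336853-24351494), apart from the receptor cluster.

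Macrophages express Il1a, Il1b, Il1rn and Il18, and their markers were therefore set beside these genes. The 14 markers summed to 1040.91, 92.9, 107.33 and 119.69 FPKM in control 1 to 4, against 581.17, 1718.03, 226.18 and 1110.45 FPKM in knockout 1 to 4. Control 1 and knockout 2, the highest library of each group for Il1a and Il1b, were also the highest of each group for the markers. Knockout 4, with the second highest sum of all libraries, had Il1b at 0.29 FPKM, within the range of control 2 to 4. Il18 was at 0.93 to 1.69 FPKM in the 4 libraries with the least marker signal and at 2.64 to 9.11 FPKM in the other 4. Il1rn was highest in control 4, a library with little marker signal. The 3 markers of highest control mean, Lyz2, C1qa and C1qb, were all lowest in control 4. The sum of control 4 was still above those of control 2 and 3, so the sum and these markers order the controls differently. Lyz2, lysozyme, had the highest control mean of the markers. It read 9.38 to 674.09 FPKM in the controls, against 82.57 to 990.32 in the knockouts. In control 2 C1qb was above it, at 17.25 against 16.89 FPKM. The part of macrophages in these 4 genes was not tested.

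**Figure D3:**
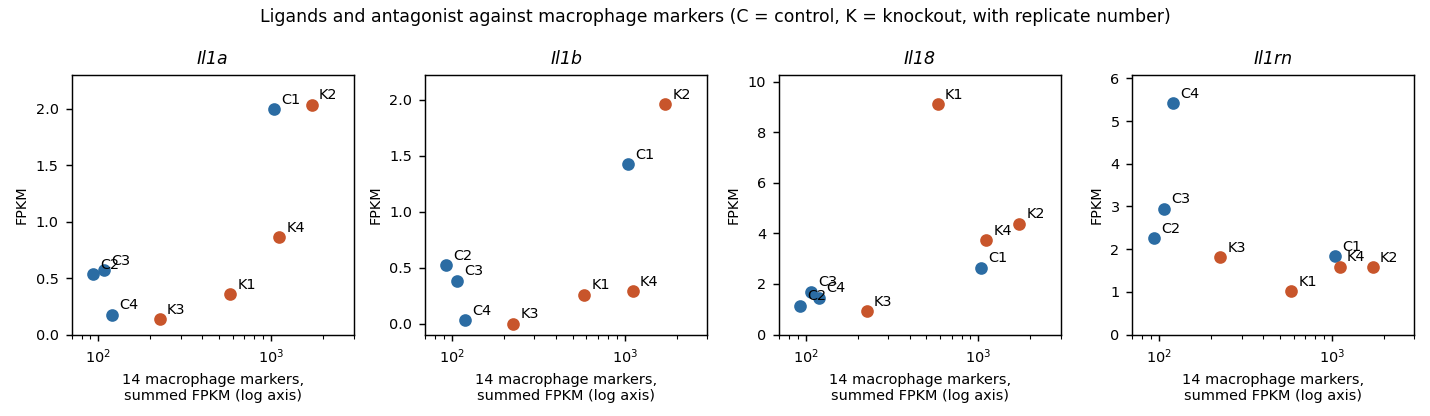
FPKM of Il1a, Il1b, Il18 and Il1rn (vertical axes) against the summed FPKM of 14 macrophage markers (horizontal log axis), 1 point per library, with C for control and K for knockout and the replicate number. Control 1 and knockout 2 are highest in their groups for Il1a and Il1b, while Il1rn is highest in control 4 at 5.42 FPKM.

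In the controls the members ranked, by mean FPKM, as Il1rl1 at 19.6, Il18r1 at 16.0, Il1r1 at 5.99, Sigirr at 4.41, Il1rn at 3.11, Il33 at 1.82, Il18 at 1.73, Il1rap at 1.70, Il1a at 0.819 and Il1b at 0.591. Each neighbour in this order overlapped the next in its range over libraries. In the knockouts Il18r1 came first at 5.01, followed by Il18 at 4.54, Il1r1 at 4.06, Sigirr at 3.65 and Il1rl1 at 3.48. The ranges of these 5 overlapped from each to the next. Il1rl1 and the next gene, Il1rn, did not overlap in the knockouts, and the levels of the other members continued down to 0.627 for Il1b.

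Since knockout 1 and 2 and knockout 3 and 4 differ in sex and in mitochondrial transcripts, each pair was also set against the 4 controls. Il1rl1 differed by -2.51 with knockout 1 and 2 and by -1.92 with knockout 3 and 4, and Il18r1 by -1.61 and -1.40. These 2 genes, with Il1rn (-0.78 and -0.53) and Il33 (-0.31 and -0.53), kept their direction in both pairs. For Il1rl1, Il18r1 and Il1rn this was fixed in advance, since every knockout lay below every control. The same 4 controls also served both pairs. Il18 was higher in both, by 1.46 and 0.18. Il1r1 (0.14 and -1.34), Il1rap (0.16 and -0.70), Sigirr (-0.90 and 0.23), Il1a (0.25 and -0.23) and Il1b (0.35 and -0.42) had opposite signs in the pairs. A test between the pairs was not made, at 2 libraries a side. Among male libraries alone limma called 3 of the 9 other members, Il18r1 (adjusted p = 0.0115), Il1r1 (adjusted p = 0.0351) and Il1rap (adjusted p = 0.0244), against 44.4% of all genes.

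**Figure D4:**
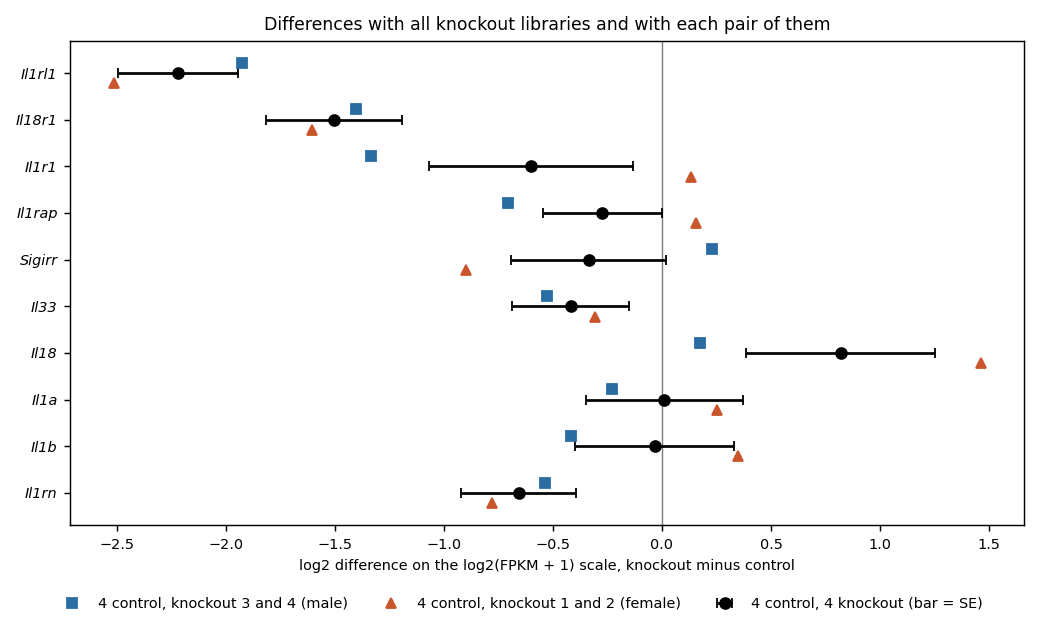
Log2 difference on the log2(FPKM + 1) scale (horizontal axis) for each member, with all 8 libraries (black, SE bars), with the male knockouts 3 and 4 (squares) and with the female knockouts 1 and 2 (triangles). Il1rl1 lies between -2.51 and -1.92 and Il18r1 between -1.61 and -1.40, whereas Il1r1, Il1rap, Sigirr, Il1a and Il1b have squares and triangles on opposite sides of 0.

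Other genes of the pathway were counted in 7 lists, which hold further ligands and receptors, cytokine processing and regulators of Il1rl1 as well as signalling and induced transcripts. Of 116 genes 88 were measured, and limma called 0 of them in either direction (14 of 88, or 15.9%, had an unadjusted p below 0.05, against 19.2% of all genes, and limma-voom on recovered reads called 0). Their median log2 difference was -0.07, beside -0.06 over all genes. All 4 knockouts lay below all 4 controls for 5 of the 88, against 6.86% of all genes. They lay above for 1, against 4.76% of all genes. The 15 measured genes of receptor-proximal signalling had a median of -0.08. Traf6, the ubiquitin ligase that acts after the Irak kinases, read 6.52, 7.94, 6.99 and 7.89 FPKM in the controls, against 4.75, 6.10, 3.14 and 3.64 in the knockouts. Its groups did not overlap (log2 difference -0.65, limma adjusted p = 0.175). Peli1 and Peli2, ligases of the Irak complex, were at 6.0 against 3.57 and 2.50 against 1.37 FPKM, and Tab3, an adaptor of the kinase Map3k7, at 5.03 against 2.91 FPKM, with knockout 3 and 4 the lowest for Peli1 and Tab3.

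The 19 genes of the kinase and NF-kB relay had a median of -0.09. Fos, a subunit of AP-1, was at 4.70 ± 1.05 against 2.64 ± 0.434 FPKM (SD, n = 4), without overlap of groups. Nfkb1 was at 16.6 against 13.1 FPKM and Mapk3 at 51.5 against 71.2 FPKM, both overlapping. Of transcripts that interleukin-1 receptors can induce, 20 of 23 were measured, 14 lower and 6 higher, with a median of -0.38. Il6, a cytokine, read 0.45, 0.43, 0.39 and 1.28 FPKM in the controls, against 0.00, 0.05, 0.00 and 0.05 in the knockouts. All 4 knockout values lie under the level of 3 reads, 0.0659 to 0.0691 FPKM (limma adjusted p = 0.154). Birc3, an inhibitor of apoptosis, was at 5.86 ± 0.345 against 3.68 ± 0.838 FPKM (SD, n = 4), without overlap. Sod2, the mitochondrial superoxide dismutase, was named after its values were seen. It was the only gene of the 7 lists with all knockouts above all controls (1 of 88, against 4.76% of all genes). Its values were 12.40 to 16.32 FPKM in the controls, against 16.39 to 18.02 FPKM in the knockouts. Ptgs2, the inducible cyclooxygenase, was at 17.6 against 7.93 FPKM and Nfkbiz, a nuclear co-factor of NF-kB, at 20.5 against 12.2 FPKM, both overlapping.

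The 12 measured genes of cytokine processing and release had a median of 0.20, with 9 higher. Nlrp3, the inflammasome sensor, was at 0.27 against 0.79 FPKM and highest in knockout 2 at 2.12 FPKM. The adaptor Pycard was at 0.28 against 0.52 FPKM, the protease subunit Capn2 at 56.7 against 70.5 FPKM and the channel Panx1 at 3.90 against 4.83 FPKM, all overlapping. The 11 measured of 20 genes of the type 2 axis, through which interleukin-33 acts on immune cells, had a median of 0.04. Ccl24, an eosinophil attractant, read 3.49, 3.08, 3.04 and 0.22 FPKM in the controls, against 0.00 to 0.33 in the knockouts, with control 4 among the knockouts. Il13ra1, a receptor chain for interleukin-13, was at 21.9 against 10.1 FPKM, Tslp, an epithelial cytokine, at 0.43 against 1.04 FPKM, and its receptor chain Crlf2 at 12.5 against 21.8 FPKM. The lymphoid cytokines Il5, Il9 and Il13 and the epithelial cytokine Il25 were not analysed here.

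Of 9 genes known to act on Il1rl1 transcription or protein turnover 8 were measured, with a median of -0.05. Spi1, a transcription factor of myeloid and mast cells, read 5.76, 1.72, 1.17 and 0.79 FPKM in the controls, against 3.26, 12.09, 2.67 and 7.46 in the knockouts, following the order of the macrophage sums at the top in each group. Gsk3b, a kinase, was at 18.8 against 12.6 FPKM, Usp38, a deubiquitinase, at 6.77 against 5.40 FPKM, and Fbxl19, a ubiquitin ligase subunit, at 14.7 against 12.2 FPKM, all overlapping. Likewise none of the 3 other measured relatives (Il18rap, Il1rl2, Il18bp) was called.

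Among 11887 genes with a mean log2(FPKM + 1) of at least 1, profiles over the 8 libraries were compared with that of Il1rl1 by the root-mean-square distance of their centred log2 values. The 5 nearest were Myo3b at 0.31, Gm15958 at 0.42, Ltbp1 at 0.45, Ehf at 0.46 and Uty at 0.48. Myo3b, a class III myosin, read 17.14, 17.83, 13.26 and 9.52 FPKM in the controls, against 1.96, 2.49, 5.05 and 4.16 in the knockouts. Like Il1rl1 it was lowest among controls in control 4 and lowest among knockouts in knockout 1. Ltbp1, which binds latent TGF-beta, was at 20.9 against 7.51 FPKM, Ehf, an ETS-family factor of epithelia, at 8.57 against 1.52 FPKM, and Gm15958, a numbered gene model, at 4.75 against 0.96 FPKM. Uty lies on the Y chromosome and was listed at 0 in knockout 1 and 2, the female libraries. Of the family Il18r1 came nearest, at a distance of 0.64 and rank 34, followed among measured neighbours and members by Slc9a2 at rank 522 and Il18rap at rank 818. Il18 was the farthest of those compared, at 1.73 and rank 11679. The measure was taken from the same libraries in which Il1rl1 was chosen and describes likeness only.

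**Figure D5:**
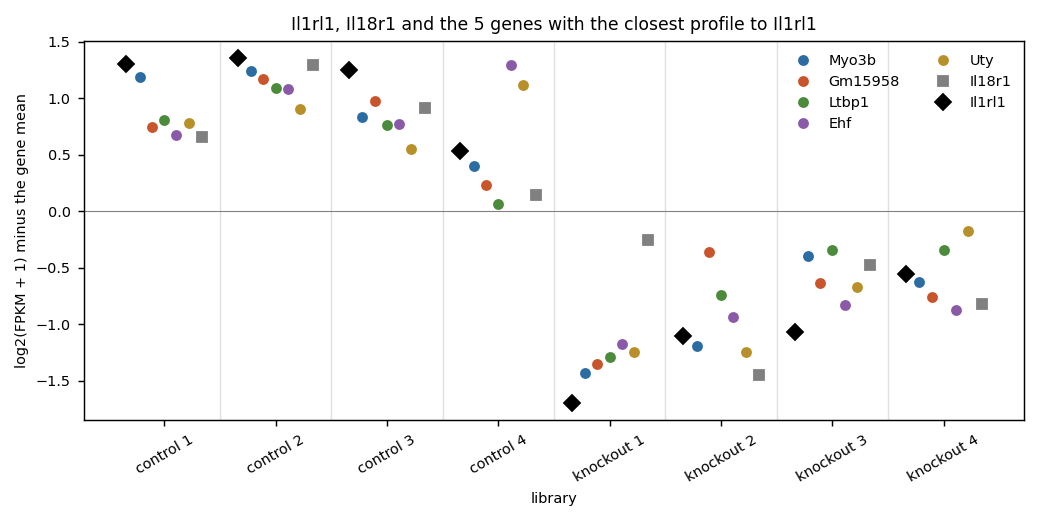
Log2(FPKM + 1) minus the gene's own mean (vertical axis) in each of the 8 libraries for Il1rl1 (diamonds), Il18r1 (squares) and the 5 genes nearest to Il1rl1 (circles). All 7 genes are above their mean in the 4 controls and below it in the 4 knockouts, and in control 4 Il1rl1 lies between Ltbp1, Il18r1, Gm15958 and Myo3b below and Uty and Ehf above.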

How the data were processed

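RNA-seq values of 8 libraries were taken from a deposited table of 14145 genes. Per the submitters' processing notes FastQC, STAR 2.4.1d, DESeq2 and the build GRCm38 were used. The counter, annotation and row filter are not stated there. What the authors deposited is FPKM, although the file is titled as counts, with their own log2 fold change, p-value and adjusted p-value for each gene. No column lacked a sample (0 columns).

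Reads were recovered from FPKM and the exon-union length in GENCODE M21 (14129 genes matched). Of values of 1 to 200 reads, 95.0% to 95.5% lay within 0.05 of a whole number. The test was limma 3.58.1 (R 4.3.3) with a variance trend on log2(FPKM + 1) of all genes in 8 libraries. Genotype was its sole term, and p-values were adjusted over all genes (Benjamini-Hochberg, threshold 0.05). A log2 difference on this scale understates that of low genes. The test was checked on simulated data in which both groups had each gene's control spread. That setting leaves out the division within the knockout group. Of 66 pairs among the 10 members, Il18rap and Il1rl2, 1 (Il18r1 and Il1rn) shared stretches of 31 bases between transcripts, 2 in number.

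Members, lists and tests were chosen with earlier results of these data known. Named were all members, every measured relative and neighbour within 500 kb, any called gene and the 4 lowest p-values of the other lists, the 3 most abundant markers of a cell type where used, and the 5 profiles nearest to Il1rl1. A gene that this rule names is not reported here. Alternatives were other pseudocounts (0.1, 0.5), a filter, median-ratio scaling, a replicate block, sex, subsets of libraries, no variance trend, limma-voom, removal of the trend on gene length (lowess, span 0.3) and leaving out each library. Python 3.11.15, pandas 2.3.3, numpy 2.4.6 and matplotlib 3.10.9 were used.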

Additional observations from a re-analysis of the deposited data

Results flagged for a closer look

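In groups of 4, a library was marked where its gap to the next took up more of the group's range than the 95% critical value of Dixon's test allows, which chance does in about 1 of 20 groups. Of 132 groups of 66 genes, 16 were marked.

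Among members and relatives, Il1rl1 was low in control 4 at 12.49 FPKM (others 21.13 to 22.83), and Il33 was high in that library at 3.74 FPKM (others 1.11 to 1.26). Il1rap was low in control 3 at 1.17 FPKM. Il1b was high in knockout 2 at 1.96 FPKM, as was Il1rl2 at 0.779 FPKM. Il18bp was high in control 1 at 1.55 FPKM.

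Further values of control 4 were marked. Il6 was high at 1.28 FPKM and Ccl24 low at 0.223 FPKM. The proximal tubule genes Gatm, which makes a creatine precursor, and Hnf4a, a transcription factor, were high at 13.97 and 10.17 FPKM. In control 1 the macrophage genes Lyz2 (674.09 FPKM) and C1qa (97.05 FPKM) and the collagens Col1a1 (283.23 FPKM), Col1a2 (123.74 FPKM) and Col3a1 (23.64 FPKM) were high. Esam, an endothelial adhesion molecule, was high among knockouts in knockout 2 at 0.429 FPKM.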

How the results depend on the processing

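Over 19 alternatives the log2 difference of Il1rl1 stayed between -2.55 and -1.92, each within the replicate spread (0.428) of the main value. Il1rl1 was chosen by this same difference, so its adjusted p shows only how the call depends on the settings and is no test. By limma that adjusted p ranged from 0.00367 to 0.229. It was above 0.05 in 9 of the 19. These were pseudocount 0.1, the replicate block, the length trend removed, and leaving out control 1, 2 or 3 or knockout 1, 3 or 4. The 11 genes called became 3 with a pseudocount of 0.1, 7 with limma-voom, 1 with a replicate block, 4838 with sex as a second term and 6275 in male libraries alone, and 1 to 1139 when single libraries were left out (1139 without knockout 2; 1 without control 1, 2 or 3 or knockout 1 or 4; 3 without knockout 3). Whether the replicate numbers pair the libraries was not settled. Correlations of same-numbered deviations were 0.04, -0.21, 0.61 and -0.04, against -0.65 to 0.40 for differently numbered ones. So few values cannot decide it. The block called none of the other 9 members (0). Calls among those 9 became 3 with sex as a term and in males alone, and 0 to 1 on leaving out a library (Il18r1, -1.27, adjusted p = 0.038 by limma without knockout 2). Calls among the 88 pathway genes became 23 (26.1%, against 34.2% of all genes) and 32 (36.4%, against 44.4%), and 0 to 4 (1 without control 4; 4 without knockout 2, or 4.55% against 8.05%).

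Signs turned for 5 members, none of them called in the main comparison. With knockout 1 and 2 alone Il1r1 was 0.14, Il1rap 0.16 and Il1b 0.35. Il1rap was 0.13 with the length trend removed. Sigirr was 0.23 with sex as a term and in males alone. Il1a was -0.04 (pseudocount 0.1), -0.23 (sex, males alone), -0.09 (limma-voom) and -0.15 (length), and -0.26 to 0.28 on leaving out a library, Il1b then -0.37 to 0.19. The filter removed Il1a and Il1b. The causes were not tested. Depth limits Il1b, at 0 to 67 reads.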

Other observations

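Some genes of the marker lists also differed between knockout 1 and 2 and knockout 3 and 4. Ms4a2, the beta chain of the high-affinity IgE receptor, read 0.23, 0.35, 0.28 and 0.78 FPKM in control 1 to 4, against 12.84, 17.13, 0.34 and 1.88 in knockout 1 to 4. Its levels in knockout 1 and 2 were thus above all other libraries, whereas Kit, the other mast cell marker measured, was at 0.08 and 0.12 FPKM there and below every control in all 4 knockouts. The keratins Krt8 and Krt18 were highest in knockout 3, at 3553.02 and 2154.53 FPKM, and lowest in knockout 2, at 266.88 and 149.09 FPKM. E-cadherin (Cdh1) was lower in knockout 1 and 2, at 41.31 and 30.10 FPKM, than in the other 6 libraries, which lay between 87.81 and 209.78 FPKM. Thy1 was at 0.19 to 1.82 FPKM in the controls, against 0.27 to 2.37 in the knockouts, and Rora at 1.42 to 3.87 and 0.41 to 2.90 FPKM. These 2 were the measured genes of 8 lymphoid markers, and 0 of 5 neutrophil markers were analysed here.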
